A study of Caenorhabditis elegans with 18 samples.

Results

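The 8 genes *irg-4* (F08G5.6), *irg-5* (F35E12.5), *sysm-1* (T24B8.5), *K08D8.5*, *dod-3* (C24B9.9), *dod-23* (F49E12.2), *dod-24* (C32H11.12), and *C32H11.4* have been used as readouts of the PMK-1 pathway and of infection in Caenorhabditis elegans. They were taken by symbol or sequence name from the platform annotation, and were measured by 9 of the 22548 probe sets tested, which name 17118 genes in all. *K08D8.5* has 2 probe sets, and the others have 1 each. Young adult worms of the wild-type strain N2, fed E. coli OP50, were kept in liquid S Basal medium for 8 h with the solvent DMSO or with LK32, LK34, LK35, LK38, or LK56 at 100 µM. These 5 small molecules came from a screen for protection of worms from Pseudomonas aeruginosa, and no pathogen was present here. The authors chose them in part because they raised defense genes of worms in an earlier nanoString assay. A rise of infection response genes is thus not independent of that choice. RNA of whole animals was measured on 18 Affymetrix arrays, 3 per group, lettered A, B, and C. All 5 compounds were compared with 1 set of 3 DMSO arrays, so these comparisons share its error. The only statement on the replicates is that each condition was run in triplicate, so p values measure the spread between these samples.

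PMK-1 is a p38 mitogen-activated protein kinase. In C. elegans the adaptor TIR-1 and the kinases NSY-1 and SEK-1 act upstream of it, and the transcription factor ATF-7 acts downstream. The pathway sets the basal and the pathogen-induced expression of secreted immune effectors, largely in the intestine. The letters *irg* stand for infection response gene, and *irg-4* and *irg-5* encode proteins with a CUB-like domain, as do *dod-24* and *K08D8.5*. *sysm-1* encodes a small protein with a ShK toxin-like domain, and its promoter is a common PMK-1 reporter. The *dod* genes were named as genes downstream of DAF-16, the FOXO factor of the insulin pathway. Several genes of these families lie side by side in the genome, and the infection response is carried by many more genes than these 8.

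The authors summarized the arrays with GCRMA to intensities, here on a linear scale from 4.605 to 58200.7, and differences between groups are given as log2. On each array 46.3% to 49.4% of the probe sets had the lowest value, 4.605, which stands for no signal above background. Groups were compared with limma, with 1 mean per group over all 18 arrays, and "called" means an adjusted p under 0.05 (Benjamini-Hochberg, over all probe sets tested) together with a change of at least 2-fold. "Rose" and "fell" are used for changes that passed the adjusted p, and changes below 2-fold are named as such. LK32 C, LK35 A, and LK38 C were the 3 arrays least like the other arrays of their group, with mean correlations of 0.951, 0.956, and 0.955. LK34 C and LK38 C deviated from their groups in a like way, with a correlation of 0.8 over 8576 probe sets. Without the first 3 arrays the counts of called genes against DMSO were 2, 6, 6, 6, and 2 for LK32, LK34, LK35, LK38, and LK56, equal to those on all arrays. Without LK34 C and LK38 C they were 2, 7, 5, 6, and 2. Over the brighter probe sets the median of the compound arrays lay above that of DMSO by 0.13, 0.11, 0.06, 0.09, and 0.22 in the same order, and a change counted from that median is smaller by this much. With LK38, 355 probe sets were called up and 169 down, against 354 and 265 after quantile normalization.

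LK34, LK35, and LK38 each raised *irg-4*, *irg-5*, *sysm-1*, *K08D8.5*, *dod-23*, and *C32H11.4*, whereas LK32 and LK56 raised *irg-5* and *C32H11.4*. Thus 6 of the 8 genes were called up with each of LK34, LK35, and LK38, where 1.49%, 0.993%, and 1.57% of all probe sets were called up. With LK32 and LK56 2 of the 8 were called up, where 0.696% and 0.514% of all probe sets were. These shares count the probe sets at the lowest value, whereas all 8 genes lay above it on all 18 arrays. For *sysm-1* the margin was small with DMSO, LK32, and LK56, at 5.87 to 5.99, so it does not show expression there. In a fit of the 9033 brighter probe sets, 218, 475, 315, 476, and 146 were called up with LK32, LK34, LK35, LK38, and LK56. Of the 8 genes 2, 6, 6, 6, and 2 were called in that fit. Fits of each compound with DMSO alone, on 6 arrays in place of 18, called 0, 5, 2, 3, and 1 of the 8 for LK32, LK34, LK35, LK38, and LK56. Of the 8 genes 0 were called down by limma with any compound, where 0.0%, 0.812%, 1.15%, 0.75%, and 0.0133% of all probe sets were with LK32, LK34, LK35, LK38, and LK56. At an unadjusted p under 0.05, 4, 7, 7, 7, and 4 of the 8 genes were higher in the same order, where 7.34%, 7.39%, 6.3%, 7.27%, and 10.5% of all probe sets were, and 1, 0, 1, 1, and 0 were lower, where 1.17%, 4.77%, 6.07%, 4.91%, and 0.794% of all probe sets were. Without the 2-fold limit, *dod-3* was higher with LK34 and LK35 and *dod-24* lower with LK35 and LK38, which brought the genes past the adjusted p to 7, 8, and 7 with LK34, LK35, and LK38, where 3.64%, 3.59%, and 3.77% of all probe sets passed. With LK32 and LK56 it left the counts at 2, where 0.94% and 0.789% passed. The median change of the 8 genes was 2.03, 1.99, and 2.52 with LK34, LK35, and LK38, 0.53 with LK32, and 0.32 with LK56. The median over all probe sets was 0.0 in each comparison, but the many probe sets at the lowest value hold it there. Over the brighter probe sets the compound arrays lay above DMSO by 0.11, 0.06, and 0.09 with LK34, LK35, and LK38. With LK32 and LK56 that shift was 0.13 and 0.22, a part of the medians of 0.53 and 0.32. Since the genes were chosen with results of these arrays known, these counts and medians describe them and carry no test.

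Over the compounds, 180 probe sets (0.798%) were called up with LK34, LK35, and LK38 alike, and these included the 6 genes. Of these, 158 (0.701%) were called with neither LK32 nor LK56, and they included *irg-4*, *sysm-1*, *K08D8.5*, and *dod-23*. All 5 compounds raised 9 probe sets in common (0.0399%), with *irg-5* and *C32H11.4* among them. Transcripts of major sperm protein (*msp*) genes moved with the same 3 compounds. Of 22 sperm genes measured, 19 were called down by limma in each of these 3 comparisons. Of all probe sets, 0.812%, 1.15%, and 0.75% were called down with LK34, LK35, and LK38. All 19 were *msp* genes, near-identical copies whose probe sets may share signal, so they are not 19 separate readings. With LK32 or LK56 0 of the 22 sperm genes were called, and 0 had an unadjusted p under 0.05. The summed intensity of the 22 sperm genes was 45390 to 52560 with DMSO, 9245 to 14230 with LK34, 8761 to 9345 with LK35, and 10390 to 15430 with LK38, against 40780 to 42770 with LK32 and 38310 to 70480 with LK56. Whether the shift in sperm transcripts had a part in the levels of the 8 genes was not tested, and in whole animals fewer cells of a type and less RNA per cell cannot be told apart.

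**Figure D1:**
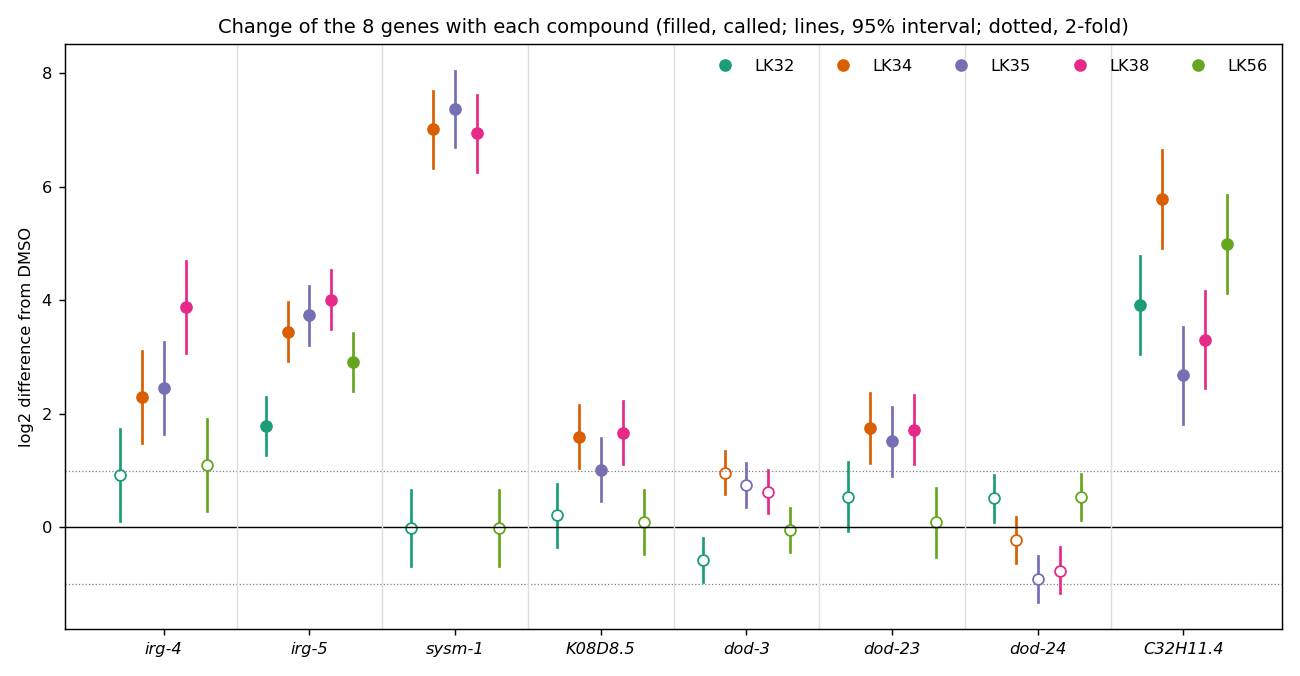
Change of the 8 genes against DMSO (y axis, log2 difference of group means over 3 arrays each) for the 5 compounds (colors). Filled circles were called, open circles were not, lines are 95% intervals from limma, and dotted lines mark 2-fold. *irg-5* and *C32H11.4* are filled with all 5 compounds, *sysm-1* is near 7 with LK34, LK35, and LK38 and at 0 with LK32 and LK56, and *dod-3* and *dod-24* stay inside the 2-fold lines.

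*irg-5*, the infection response gene whose promoter drives a PMK-1 reporter, rose with every compound. For that reporter the paper describes a modest gain in fluorescence with LK38 and LK56, measured later than the RNA here. The RNA levels are thus not a reading of the reporter. Its intensity was 168, 105, and 87.8 on the DMSO arrays A, B, and C. With LK32 it was 479, 406, and 325, and with LK56 it was 977, 1060, and 652. The arrays of both groups lay above all DMSO arrays. With LK34 the 3 arrays were 1248, 1262, and 1294, the closest set of any compound, with a CV of 1.85%. With LK35 they were 1320, 1703, and 1632, and with LK38 2109, 1832, and 1698. The log2 changes were 1.78 for LK32, 3.45 for LK34, 3.74 for LK35, 4.01 for LK38, and 2.92 for LK56 (SE 0.24; adjusted p = 0.0031, 4.4e-06, 2.1e-06, 8.6e-07, and 4.9e-05 from limma). In the order of levels, DMSO was followed by LK32, LK56, LK34, LK35, and LK38, and of these neighbors only DMSO and LK32 differed in the fit over all probe sets. LK56 against LK32 (1.14, 95% interval 0.63 to 1.65) had an adjusted p of 0.087, with all LK56 arrays above all LK32 arrays. When each compound was fitted with DMSO alone, on 6 arrays, the rises with LK32 and LK56 were not called (adjusted p = 0.29 and 0.091), and those with LK34, LK35, and LK38 were.

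*irg-4*, the second CUB-like infection response gene, was dim without compound, at 32.7, 28.6, and 20.1 with DMSO. LK34 brought it to 119, 132, and 143, and LK35 to 110.9, 179.5, and 157. LK38 gave the highest values and the widest spread, 593, 464, and 220.2, with LK38 C less than 2-fold above the highest LK34 array. The changes were 2.3 with LK34, 2.46 with LK35, and 3.88 with LK38 (SE 0.37; limma adjusted p = 0.0034, 0.0022, and 5.5e-05). With LK32 the intensities were 60.5, 33.2, and 64.3, and with LK56 79.04, 48.3, and 48.3. All of these arrays were above the DMSO arrays, but the changes of 0.93 and 1.1 had adjusted p of 0.44 and 0.24. The arrays LK56 B and C had the same value. In a fit of the 2 groups alone, the changes with LK35 and LK38 were not called (adjusted p = 0.057 and 0.062).

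*sysm-1* separated the compounds most sharply of the 8 genes. Its intensity lay between 5.87 and 5.99 on all 9 arrays of DMSO, LK32, and LK56, and 5 of these arrays had the same value, 5.88. LK34 gave 607, 662, and 1120, LK35 gave 1057, 770.1, and 1156, and LK38 gave 551, 531, and 1333. None of these 9 arrays came near the other 9. The log2 changes were 7.02, 7.37, and 6.95 (SE 0.31; limma adjusted p = 6.6e-08, 1.1e-07, and 8.6e-08), and -0.01 with both LK32 and LK56 (adjusted p = 1 for each, 95% interval -0.68 to 0.66). The size of the rise rests on a control level close to the lowest value of the arrays, and with 16 added to every intensity it was 5.16, 5.51, and 5.09. The SE also pools 9 arrays that hardly vary with 9 that do, since the SD of log2 was 0.48 with LK34, 0.31 with LK35, and 0.75 with LK38 but 0.01 with DMSO. LK38 C, lowest of its group for *irg-4* and *irg-5*, was the highest for *sysm-1*.

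*K08D8.5*, a CUB-like gene used as an infection readout, changed less. The brighter of its probe sets read 82.5, 82.5, and 80.6 with DMSO, where the value 82.5 recurred on 4 arrays. With LK34 it was 218, 303, and 232.5, with LK35 110.5, 229.5, and 182, and with LK38 328.5, 269.9, and 201.3. All 9 arrays were above DMSO, and LK35 A was the lowest of them. The changes were 1.6 with LK34 and 1.67 with LK38 (SE 0.26; limma adjusted p = 0.0034 and 0.0023). The change of 1.02 with LK35 had an adjusted p of 0.0496 and a fold of 2.03, both at the limits of the rule, and it was lost under 21 of the 30 alternatives tried. The change with LK38 was lost in the fit of the 2 groups alone (adjusted p = 0.062). LK32 (82.5, 92.9, and 110.7) and LK56 (110.7, 74.1, and 82.5) overlapped DMSO, with changes of 0.21 and 0.1. The dimmer probe set of *K08D8.5*, at 11.31 on 6 of the 18 arrays, followed the brighter one with a Pearson correlation of 0.91 over the arrays. By it the gene was called with LK34 (1.66, adjusted p = 0.017) and missed the call with LK38 (1.34, adjusted p = 0.0517) and LK35 (0.67, adjusted p = 0.51).

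**Figure D2:**
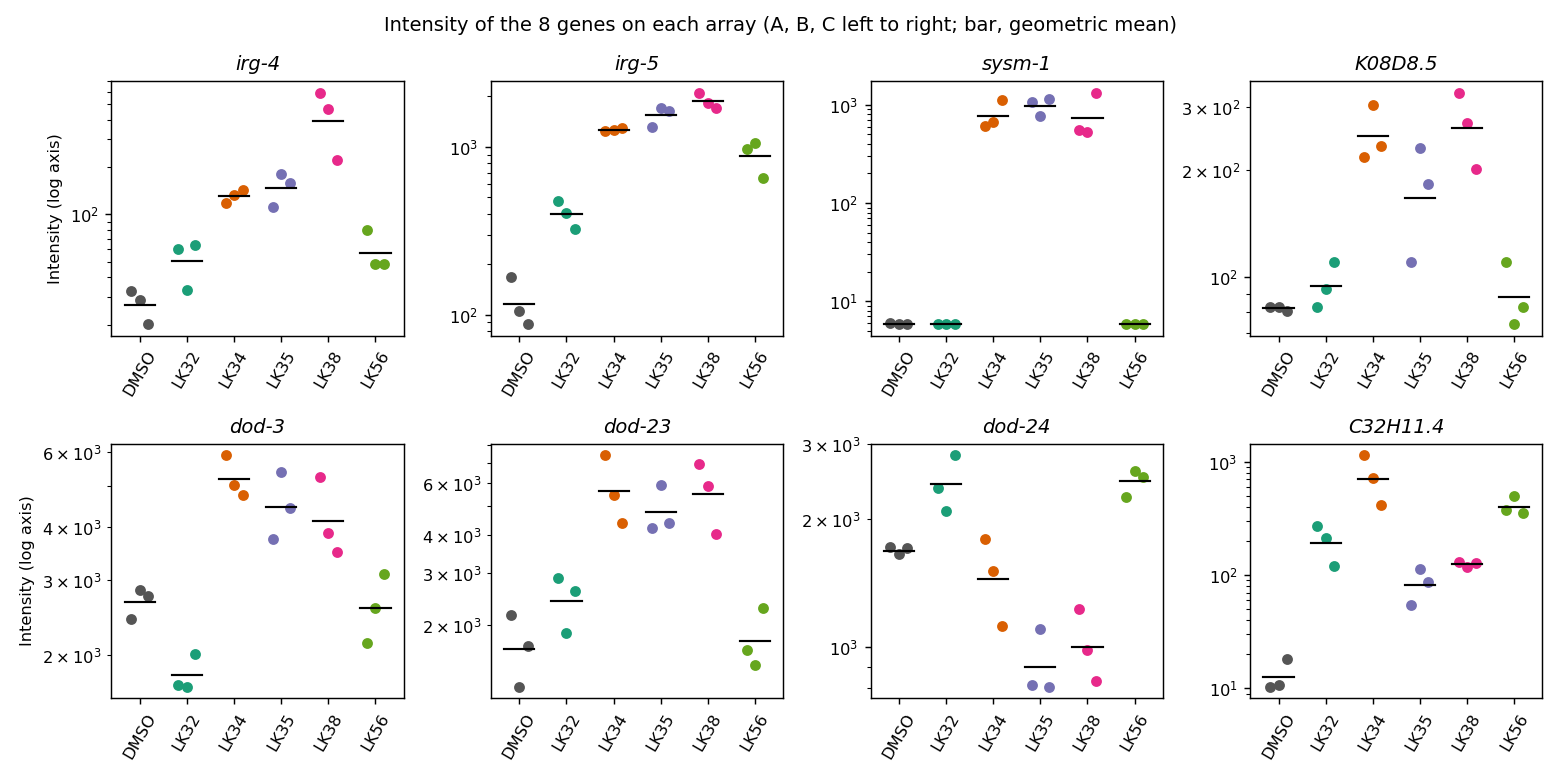
Intensity of each of the 8 genes (y axes, GCRMA intensity on a log scale) in DMSO and the 5 compounds, with arrays A, B, and C from left to right in each group and the geometric mean as a bar. *sysm-1* lies near 5.9 in DMSO, LK32, and LK56 and between 531 and 1333 in LK34, LK35, and LK38. *dod-24* is high in LK32 and LK56 and low in LK35 and LK38.

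Among the *dod* genes, *dod-23* rose with LK34, LK35, and LK38. It was bright in all groups, with 2164, 1247, and 1709 on the DMSO arrays. LK34 gave 7405, 5445, and 4412, LK35 4247, 5873, and 4382, and LK38 6921, 5858, and 4051. No array of these compounds overlapped DMSO, and in both LK34 and LK38 array A was highest and C lowest. The changes of 1.76, 1.52, and 1.72 (SE 0.28) had limma adjusted p of 0.0033, 0.0083, and 0.0038, and of 0.099, 0.12, and 0.14 in fits of the 2 groups alone. LK32 (2886, 1887, and 2608) and LK56 (1656, 1469, and 2288) overlapped DMSO, with changes of 0.54 and 0.09, and the second turned negative under 5 alternatives.

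*dod-3* took an intermediate course. Its DMSO arrays read 2427, 2839, and 2750. LK34 gave 5886, 5023, and 4754, and LK35 3747, 5366, and 4422. Every array of both compounds was above DMSO, and the rises of 0.96 and 0.74 (SE 0.18; limma adjusted p = 0.0081 and 0.038) were below 2-fold. The second did not pass in the fit of the 2 groups alone (adjusted p = 0.17). With LK38 (5231, 3872, and 3498) the change of 0.63 had an adjusted p of 0.078. With LK32 the order was the opposite one, 1701, 1687, and 2012, with all arrays below DMSO and a change of -0.57 that did not pass (95% interval -0.96 to -0.19; adjusted p = 0.22). LK56 (2136, 2579, and 3100) overlapped DMSO and differed from it by -0.05.

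*dod-24* was the only one of the 8 genes to pass the adjusted p in the downward direction. With DMSO it was 1721, 1651, and 1706, a CV of 2.18%. It fell by 0.91 with LK35 (815, 1101, and 807) and by 0.76 with LK38 (1231, 983, and 831.3), below 2-fold in both (SE 0.19; limma adjusted p = 0.016 and 0.044). In fits of the 2 groups alone neither passed (adjusted p = 0.1 and 0.18). All arrays of both compounds were below all DMSO arrays. With LK32 (2370, 2092, and 2825) and LK56 (2256, 2589, and 2517) all arrays were above DMSO, and the changes of 0.51 and 0.53 had adjusted p of 0.36 and 0.26. LK34 (1797, 1507, and 1121) overlapped DMSO at -0.23. Adjacent groups in the order LK35, LK38, LK34, DMSO, LK32, LK56 did not differ by the adjusted p, though its ends did.

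*C32H11.4* gave the widest range after *sysm-1*, and a different order of compounds from any other of the 8 genes. It was dim with DMSO, at 10.3, 10.7, and 18.1. LK34 raised it to 1142, 722, and 416 and LK56 to 373, 495, and 350.5. LK32 gave 273, 212, and 121, LK38 129.6, 119, and 128, and LK35 54.6, 112.7, and 86.8. Every compound array was above every DMSO array, and LK34 and LK56 were highest while LK35 was lowest. From the highest to the lowest, the changes were 5.79 for LK34, 4.99 for LK56, 3.92 for LK32, 3.31 for LK38, and 2.68 for LK35 (SE 0.40; limma adjusted p = 4.4e-06, 4.3e-05, 4.8e-04, 3.2e-04, and 0.002). With 16 added to each intensity they were 4.64, 3.85, 2.85, 2.29, and 1.76, all still called. In fits of the 2 groups alone the rises with LK32 and LK35 were not called (adjusted p = 0.15 and 0.088).

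Whether all arrays of a compound lay on one side of DMSO was counted for the 8 genes. With LK34 7 genes had all arrays above and 1 overlapped, where 10.2% of all probe sets lay above and 6.39% below. With LK35 and LK38 it was 7 above and *dod-24* below in each, where 8.36% and 8.97% of all probe sets lay above and 6.98% and 6.48% below. With LK32 4 lay above, *dod-3* below, and 3 overlapped, against a background of 8.73% above and 1.67% below. With LK56 4 lay above and 4 overlapped, where 14.7% of all probe sets lay above and 0.674% below.

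The compounds were also set against each other at the same dose and time, in 10 pairs, with p values adjusted over all probe sets in each pair. Of the 80 tests over 8 genes and 10 pairs, 37 were called. LK34, LK35, or LK38 against LK32 or LK56 accounted for 35 of 48 tests. Of all probe sets, 4.04%, 5.1%, and 3.75% were called for LK34, LK35, and LK38 against LK32, and 4.29%, 5.14%, and 3.97% for LK56 against the same 3. Within LK34, LK35, and LK38, 2 of 24 tests were called, where 0.0843% of all probe sets were called for LK35 against LK34, 0.231% for LK38 against LK34, and 0.191% for LK38 against LK35. Between LK56 and LK32 the count was 0 of 8, where 0.235% of all probe sets were called, and 3 of the 8 genes were higher with LK56 at an unadjusted p under 0.05, as were 4.1% of all probe sets.

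*sysm-1* was called in all 6 pairs across these sets of compounds, with differences of 6.96 to 7.38. *C32H11.4* gave both calls within LK34, LK35, and LK38. It was lower with LK35 than with LK34 (-3.11, 95% interval -3.97 to -2.25) and lower with LK38 than with LK34 (-2.48, 95% interval -3.34 to -1.62), with limma adjusted p of 0.0072 and 0.02. It was also higher with LK56 than with LK35 or LK38, by 2.31 and 1.68 (adjusted p = 0.0026 and 0.019), the reverse of the direction that LK56 took in *irg-4*, *irg-5*, and *sysm-1*. LK32 and LK38 did not differ in *C32H11.4* beyond the spread (LK38 minus LK32, -0.61, 95% interval -1.47 to 0.25).

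For *irg-4* all LK38 arrays were above all LK34 and LK35 arrays, by 1.59 and 1.42 in the means. These differences passed when the p values of the gene were adjusted over its 10 pairs (0.0033 and 0.0044) and not when adjusted over all probe sets (0.25 and 0.55), where few probe sets differ between these compounds. By limma p adjusted over 10 pairs, *dod-24* was also lower with LK35 and LK38 than with LK34 (0.0043 and 0.018). *irg-5* was higher with LK38 than with LK34 (0.049), and *K08D8.5* with LK38 than with LK35 (0.038). The dimmer *K08D8.5* probe set was lower with LK35 than with LK34 (0.027). None of these passed over all probe sets, and the adjustment over 10 pairs does not count the several genes examined. *dod-3* was higher with LK34, LK35, and LK38 than with LK32, by 1.54, 1.32, and 1.21 (adjusted p = 2.1e-04, 5.1e-04, and 0.0011). *dod-24* was lower with LK35 and LK38 than with LK32 (-1.42 and -1.27) and higher with LK56 than with either (1.45 and 1.29), with adjusted p between 3.7e-04 and 0.0011. For *dod-23* the interval of LK38 minus LK34 was -0.65 to 0.57, so a difference of up to about that size was not detectable between them.

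**Figure D3:**
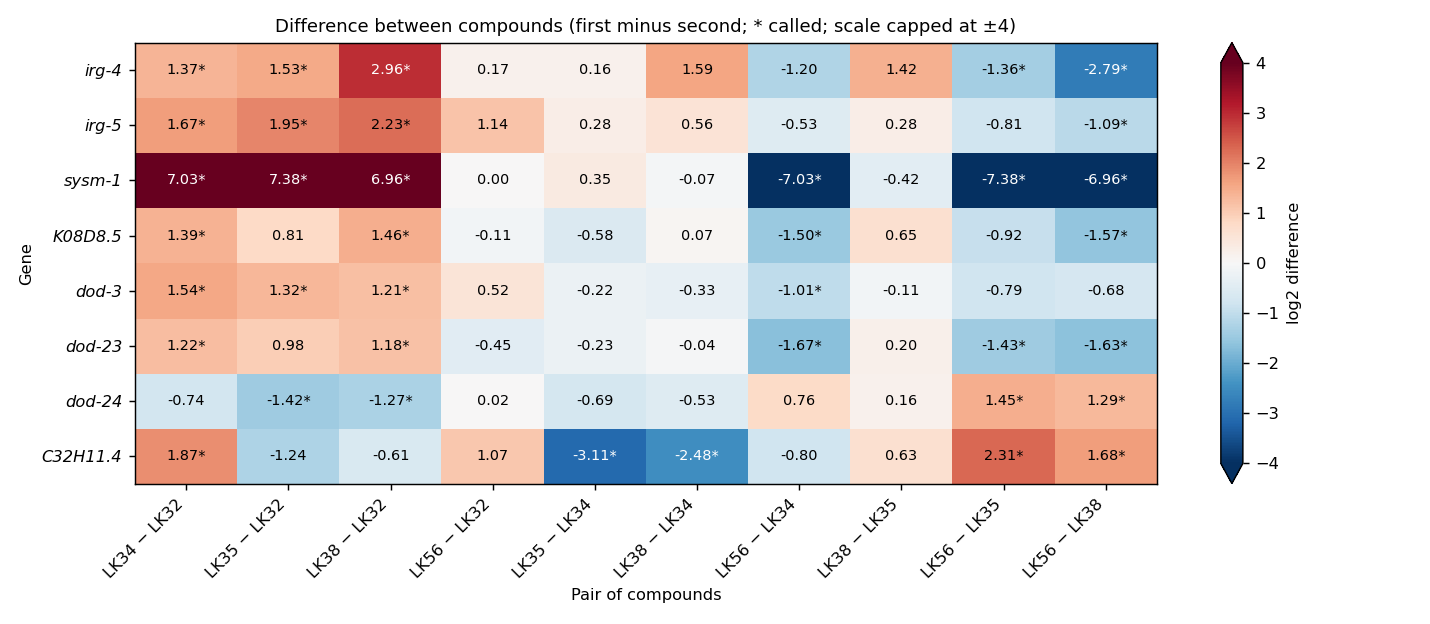
Differences between compounds (color and numbers, log2, first compound minus second, mean of 3 arrays each) for the 8 genes (rows) in the 10 pairs (columns), with an asterisk for a called difference. The 6 columns that pair LK34, LK35, or LK38 with LK32 or LK56 hold 35 of the 37 asterisks. *C32H11.4* carries the only 2 asterisks among LK34, LK35, and LK38.

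Within a compound, the same arrays were often high or low in several of the genes. LK38 A had the highest intensity of its group in 7 of the 8 genes, all but *sysm-1*. LK38 C was lowest in 6, and highest in *sysm-1*. In LK35, B was highest in 7 and A lowest in 6. LK34 C was the lowest array in *dod-3*, *dod-23*, *dod-24*, and *C32H11.4*, and the highest in *irg-4*, *irg-5*, and *sysm-1*. Because the genes share these arrays, their errors are not independent of each other.

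**Figure D4:**
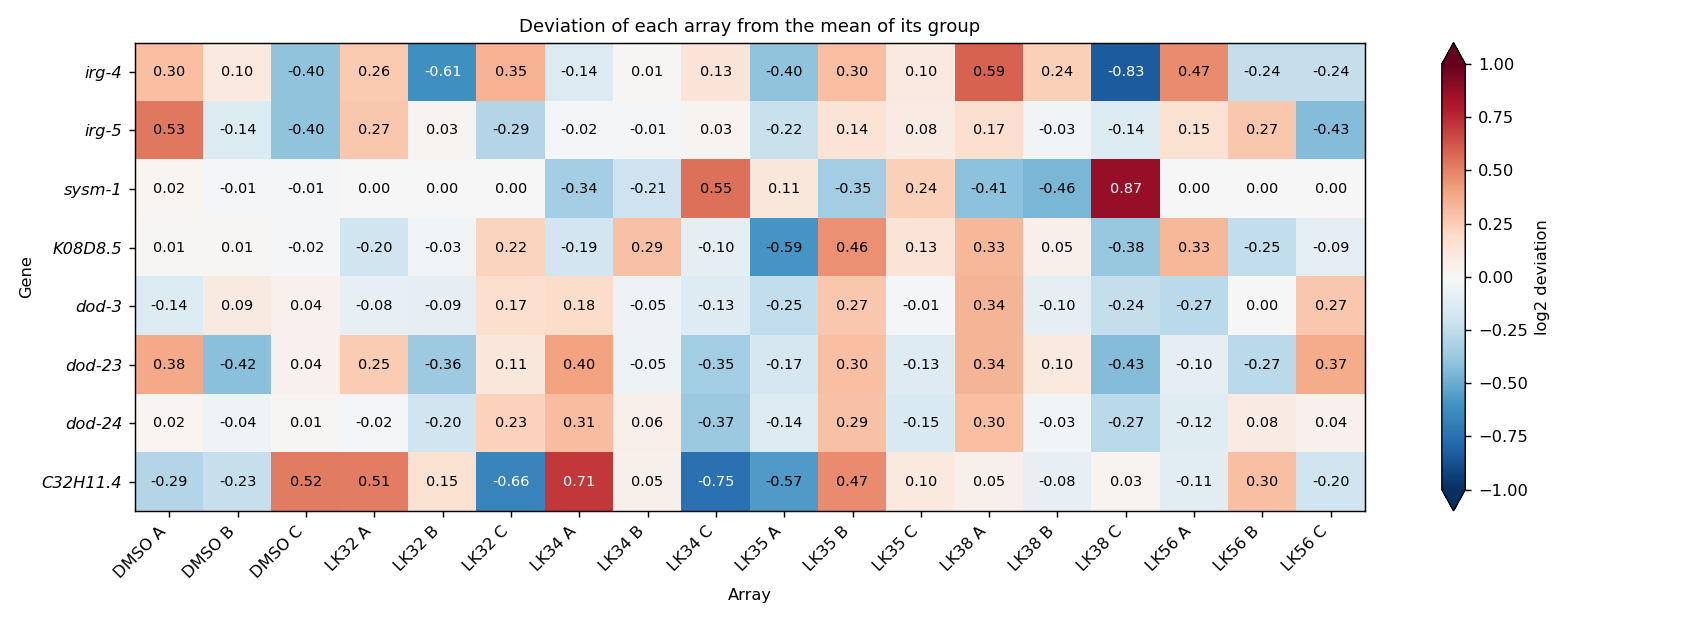
Deviation of each array (columns) from the mean of its group on the log2 scale (color and numbers) for the 8 genes (rows). In the LK38 columns, A is positive in 7 genes and C negative in 6, and *sysm-1* takes the other sign on these arrays.

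Across the 18 arrays the log2 levels of the 8 genes gave 28 pairs, with a median Pearson correlation of 0.65 and 16 pairs above 0.5. The highest, 0.89, joined *irg-4* to *K08D8.5* and *K08D8.5* to *dod-23*. Correlations below 0 were found in 6 pairs, and *dod-24* was in each of them, down to -0.85 with *sysm-1*. *C32H11.4* followed *irg-5* at 0.63 and the other genes at 0.21 to 0.36. These values describe 18 arrays that fall into 6 groups, so they mostly restate how the compounds differ.

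Among 8169 probe sets of other single genes with a mean log2 intensity above 5, those most like each gene were found by the same correlation. *sysm-1* was closest to *pud-4* (0.989), *lec-6* (0.983), a galectin gene, and *T04D3.5* (0.981). The intensity of *pud-4* went from a mean of 10.9 with DMSO to 3670 with LK34, 4010 with LK35, and 3840 with LK38, and was 21.4 with LK32 and 12.4 with LK56. *dod-23* was closest to *cav-1* (0.969), a caveolin gene, *pcca-1* (0.965), a subunit of propionyl-CoA carboxylase, and *kynu-1* (0.965), a kynureninase.

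*dod-24* had as its nearest *acp-6* (0.968), *mup-2* (0.962), and *B0228.7* (0.961). The mean of *acp-6* was 1070 with DMSO, 2320 with LK32, and 1770 with LK56, and 794, 407, and 479 with LK34, LK35, and LK38, the same order of sets as *dod-24*. *irg-4* was nearest to *C05D2.8* (0.967), *nspg-6* (0.937), and *skr-8* (0.937), and *irg-5* to *acdh-7* (0.942), *lro-1* (0.929), and *cyp-37A1* (0.901). *K08D8.5* was nearest to *Y38E10A.14* (0.956), *dpy-18* (0.954), and *Y45F10C.4* (0.95), and *dod-3* to *ttr-44* (0.938), *icl-1* (0.927), the glyoxylate cycle enzyme, and *hsp-12.3* (0.896). *C32H11.4* had the weakest nearest neighbor, *R08F11.4* (0.875), followed by *mce-1* (0.825) and *C07D8.6* (0.813). With LK34 *R08F11.4* had its highest mean, 1190, against 315 with DMSO and 517 to 782 with the other compounds.

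In the gene order of the RefSeq assembly WBcel235, 4 of the 8 genes lie on chromosome IV, with 91 protein-coding genes between *irg-4* and *K08D8.5*, 3 between *K08D8.5* and *C32H11.4*, and 6 between *C32H11.4* and *dod-24*. The last 3 thus lie in 1 cluster yet moved differently. *K08D8.5* rose with 3 compounds, *C32H11.4* with all 5, and *dod-24* fell below 2-fold with LK35 and LK38. From *K08D8.6* to *dct-19* the cluster holds 23 protein-coding genes, 14 with a probe set of their own. Of these 14, 5 were at the lowest value on every array, and 4 were above it on all 18. Besides the 3 genes, only *K08D8.6* was among these 4, and it was not called: its change with LK32 was 2.84 (SE 0.78, adjusted p = 0.15). The infection response gene *irg-6*, between *K08D8.5* and *C32H11.4*, was above the lowest value on 1 array.

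**Figure D5:**
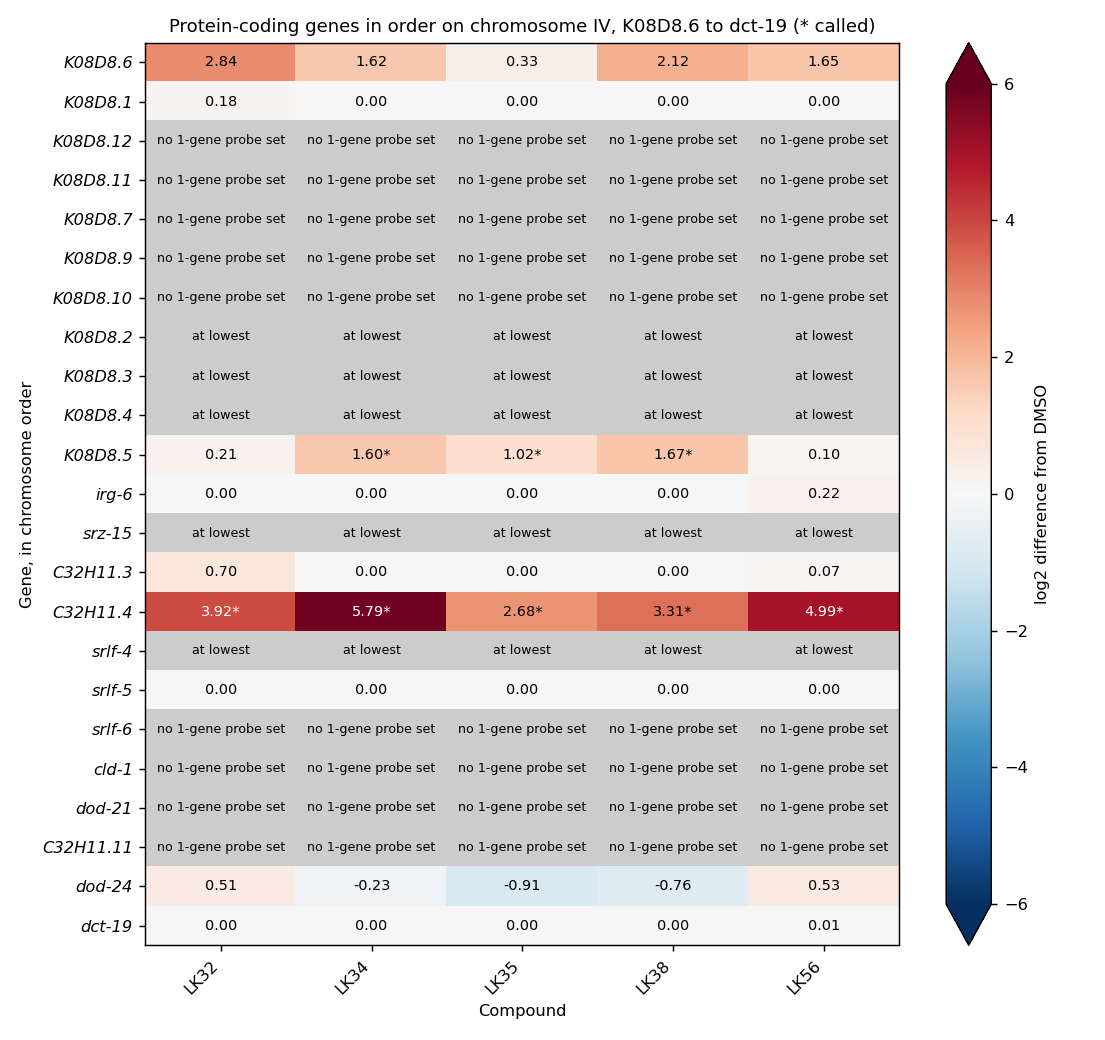
Log2 difference from DMSO (color and numbers) with each compound (columns) for the protein-coding genes from *K08D8.6* to *dct-19* in their order on chromosome IV (rows). Gray rows had no probe set of 1 gene or were at the lowest value on all arrays. Only *K08D8.5* and *C32H11.4* carry asterisks, for called changes.

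Genes on the same genomic clones as the 8 genes were counted too. Of 61, 46 were measured by a probe set of 1 gene, and 25 of these were above the lowest value on some array. Called changes were 1 up with LK32, 1 down with LK34, 1 up and 1 down with LK35, 1 up and 1 down with LK38, and 1 up with LK56. Of all probe sets, 0.696%, 1.49%, 0.993%, 1.57%, and 0.514% were called up with LK32, LK34, LK35, LK38, and LK56. In the same order 0.0%, 0.812%, 1.15%, 0.75%, and 0.0133% were called down. *F49E12.10*, on the clone of *dod-23*, fell with LK34, LK35, and LK38 (log2 changes of -3.93, -4.94, and -4.55, SE 0.31), so it moved against *dod-23*. *T24B8.3*, on the clone of *sysm-1*, rose by 2.07 with LK38 (SE 0.48, adjusted p = 0.031), with 1.8 and 1.72 for LK34 and LK35 not called. *F35E12.10*, on the clone of *irg-5*, rose by 1.11 with LK32, and *drd-1* by 2.59 with LK56 (adjusted p = 0.049). The remaining called gene, *skpo-1*, a peroxidase gene chosen for naming after its values were seen, rose by 1.05 with LK35.

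The genes of the PMK-1 cascade itself were counted next. Of 16 listed genes, 14 were measured, and 0 were called by limma with any of the 5 compounds. At an unadjusted p under 0.05, 3 were higher for LK32 and LK38, 2 for LK56, and 1 for LK34 and LK35, and 0 were lower. Of all probe sets, 7.34%, 7.39%, 6.3%, 7.27%, and 10.5% were higher by this p with LK32, LK34, LK35, LK38, and LK56. In the same order 1.17%, 4.77%, 6.07%, 4.91%, and 0.794% were lower. The median change of the list lay between 0.079 (LK35) and 0.318 (LK38). The summed intensity of the 14 genes was 2830 to 3346 with DMSO, and every array of LK32 (3673 to 4450), LK38 (3587 to 4010), and LK56 (3394 to 3944) was above it. LK34 (3200 to 4086) and LK35 (3130 to 4105) overlapped DMSO. These sums include the general shift of the brighter probe sets above DMSO, a log2 of 0.13, 0.09, and 0.22 with LK32, LK38, and LK56. *pmk-1*, named after its values were seen, had means of 82.1 with DMSO, 161.4 with LK32, 144 with LK56, 113.1 with LK38, 92.9 with LK34, and 91.0 with LK35. The change with LK32 was 0.95 (SE 0.27, adjusted p = 0.18). *rab-1*, likewise named afterwards, passed the adjusted p with LK32 at 0.54 (adjusted p = 0.0477), below 2-fold. RNA level says nothing of the phosphorylation by which PMK-1 is activated.

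Other infection response genes were counted in the same fit. Of 22 listed genes, 21 were measured, and 2 were called up with LK34, 1 with LK35, and 2 with LK38, where 1.49%, 0.993%, and 1.57% of all probe sets were. With LK32 and LK56 0 were called by limma, where 0.696% and 0.514% of all probe sets were called up. At an unadjusted p under 0.05, 7.34%, 7.39%, 6.3%, 7.27%, and 10.5% of all probe sets were higher with LK32, LK34, LK35, LK38, and LK56. In the same order 1.17%, 4.77%, 6.07%, 4.91%, and 0.794% were lower. Of the 21 genes, 8, 6, 3, 7, and 4 were higher and 0, 1, 2, 0, and 0 lower in that order. Their summed intensity was 12380 to 14700 with DMSO, 17460 to 20310 with LK32, 19910 to 29860 with LK34, 17720 to 30510 with LK38, and 17400 to 17700 with LK56, all above DMSO, whereas LK35 (14260 to 25670) overlapped it. These sums include the general shift of the brighter probe sets above DMSO, which was largest with LK56, at 0.22. A test of this list against the 8 genes was not made. *lys-2*, a lysozyme gene, rose by 2.81 with LK34, 2.38 with LK35, and 2.75 with LK38 (SE 0.20). *lys-8*, another lysozyme gene, rose by 1.0 with LK34 (SE 0.21, adjusted p = 0.019). *clec-85*, a C-type lectin gene, rose by 1.13 with LK38 (SE 0.17, adjusted p = 0.0022). The median change of the list was highest with LK32, at 0.701, though no gene was called there, and was 0.308 with LK56, 0.243 with LK34, 0.097 with LK38, and 0.0 with LK35. Of 14 other *dod* genes, 6 were measured and 0 were called with any compound. Of these 6, at an unadjusted p under 0.05 2, 1, 0, 1, and 1 were higher and 0, 0, 1, 1, and 0 lower for LK32, LK34, LK35, LK38, and LK56. Their summed intensity was 4122 to 4446 with DMSO and 1319 to 2916 with LK35, where every array was below DMSO. The other compounds overlapped DMSO, with 4200 to 5662 for LK32, 2092 to 5284 for LK34, 1517 to 4501 for LK38, and 4255 to 4971 for LK56.

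Markers of tissues were counted in the same fit, with 13 intestine, 10 epidermis, 22 sperm, 13 oocyte and yolk, and 8 muscle genes measured. In the intestine list *mtl-2*, a metallothionein, rose by 1.23, 1.84, and 1.88 with LK34, LK35, and LK38. With the same 3, *ifb-2*, an intestinal intermediate filament, fell (-1.77, -2.04, and -1.55), as did *pept-1*, a peptide transporter (-1.62, -1.97, and -1.58). *act-5*, an actin of the intestinal microvilli, rose by 1.31 with LK38, and *elt-7*, a GATA factor chosen for naming after its values were seen, rose by 1.22 with LK32 and fell by 1.23 with LK35. The summed intensity of the list was 48990 to 54310 with DMSO, 57320 to 64500 with LK32, 55820 to 60170 with LK56, 47200 to 53760 with LK34, 46750 to 53790 with LK35, and 51460 to 59980 with LK38. All LK32 and LK56 arrays were thus above DMSO, and the other 3 compounds overlapped it. The sums include the general shift of the brighter probe sets above DMSO, a log2 of 0.13 with LK32 and 0.22 with LK56. With these 2 compounds, 8.73% and 14.7% of all probe sets had every array above DMSO. A rise particular to the intestine is thus not shown by the sums. The part of the intestine transcripts in the levels of the 8 genes was not tested.

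In the sperm list *msp-152*, *msp-64*, *msp-50*, and *msp-19* changed most, and the changes of *msp-64* were -2.44 with LK34, -2.79 with LK35, and -2.5 with LK38 (SE 0.19). The *msp* genes are near-identical copies, so their probe sets may share signal, and *fer-1* was at the lowest value on all arrays. *vit-1*, a yolk protein gene, rose by 2.92, 3.96, and 3.13 with the same 3 compounds (SE 0.58) and was the only called gene of the oocyte and yolk list. More of its 13 genes moved by less. At an unadjusted p under 0.05, 10, 11, and 6 were higher with LK34, LK35, and LK38, where 7.39%, 6.3%, and 7.27% of all probe sets were. With LK32 and LK56 0 were higher, and 2 and 0 were lower. Without the 2-fold limit 4, 6, and 1 rose with LK34, LK35, and LK38, where 3.64%, 3.59%, and 3.77% of all probe sets passed in either direction. The summed intensity of the oocyte and yolk list was 178600 to 190300 with DMSO, 211900 to 220300 with LK34, 221500 to 229800 with LK35, 209200 to 224800 with LK38, 169300 to 183900 with LK32, and 163200 to 183400 with LK56. In the epidermis and muscle lists 0 genes were called by limma with any compound. Counts at an unadjusted p under 0.05 are given in the order LK32, LK34, LK35, LK38, LK56. By them 1, 1, 1, 1, and 2 epidermis genes were higher and 0, 2, 0, 0, and 0 lower. For muscle 2, 0, 0, 1, and 1 genes were higher and 0, 1, 3, 0, and 0 lower. Of all probe sets, 7.34%, 7.39%, 6.3%, 7.27%, and 10.5% were higher and 1.17%, 4.77%, 6.07%, 4.91%, and 0.794% lower. The summed intensity of the epidermis list was 24530 to 26560 with DMSO, 29840 to 30760 with LK32, and 28380 to 31750 with LK56, so all arrays of these compounds were above DMSO. LK34 (24860 to 26250), LK35 (25850 to 29690), and LK38 (25950 to 29190) overlapped it. The epidermis sums also include the general shift of 0.13 with LK32 and 0.22 with LK56, so they do not show a rise particular to that tissue. The summed intensity of the muscle list was 14940 to 18480 with DMSO. All arrays of LK34 (8479 to 13020) and LK35 (7281 to 13090) were below DMSO. LK38 (8630 to 18780), LK32 (16050 to 20520), and LK56 (17860 to 20580) overlapped it, and *myo-2* was at the lowest value throughout. The part of the shifts in epidermis, muscle, and yolk transcripts in the levels of the 8 genes was not tested. Among 7 reference genes 0 were called. In the same order 0, 1, 1, 1, and 1 of them were higher, and 1, 1, 0, 1, and 0 lower, by the unadjusted p under 0.05. The medians of their changes lay between 0.021 and 0.171.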

How the data were processed

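The deposited values are linear intensities of 18 Affymetrix arrays (3 per group), which the authors summarized with GCRMA. GCRMA corrects background by probe sequence and normalizes arrays to each other, so a change common to all transcripts is not seen, and its version is not given in the sources used here. Of 22625 probe sets 77 controls were left out. Intensities were log2-transformed, no offset added, for a fit in limma 3.58.1 under R 4.3.3 (12 residual and 0.332 prior degrees of freedom), and p values were adjusted over 22548 probe sets. The number of arrays limits the precision. Of the probe sets, 20766 name 1 gene, 887 several, and 895 none. A gene was counted by its brightest probe set of 1 gene. Probe sets ending in _s_at, such as those of *dod-3*, *dod-24*, and the brighter of *K08D8.5*, may detect several transcripts. Names and gene order come from the platform annotation and RefSeq (WBcel235).

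Genes and lists were chosen with earlier results of these data known. Every one of the 8 genes is named, of each list and clone set at most the 4 called genes with the largest change, and per gene the 3 probe sets most correlated with it. On data simulated for LK34 against DMSO over 22548 probe sets, 69 of 100 changes of 1.5 and 95 of 100 changes of 3.0 (log2) were recovered, 0 in the wrong direction. The changes were placed only among the 8576 probe sets with a mean log2 intensity over 5. Simulated arrays were independent of each other, so recovery for dimmer probe sets or with shared array deviations was not measured. Alternatives were quantile normalization, median centring, an offset of 16, brighter probe sets alone, the 2 groups alone, array weights, other call limits, a replicate block, leaving out each array, and 2 sets of arrays chosen after seeing the data. Figures were drawn with matplotlib 3.10.9.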

Additional observations from a re-analysis of the deposited data

Results flagged for a closer look

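For *dod-3* and *dod-24* the difference between compounds was itself called, with all arrays of one compound above DMSO and all arrays of the other below it. *dod-3* was higher with LK34, LK35, and LK38 than with LK32 by 1.54, 1.32, and 1.21 on the log2 scale (limma adjusted p = 2.1e-04, 5.1e-04, and 0.0011). *dod-24* with LK35 against LK32 differed by -1.42, and with LK38 against LK32 by -1.27 (adjusted p = 4.2e-04 and 0.0011). *dod-24* with LK56 against LK35 differed by 1.45, and with LK56 against LK38 by 1.29 (adjusted p = 3.7e-04 and 9.6e-04). Of the changes against DMSO behind these differences, those of *dod-3* with LK32 and LK38 and of *dod-24* with LK32 and LK56 did not pass the adjusted p.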

How the results depend on the processing

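Over 30 alternatives, 18 of which leave out 1 array, the 1200 recomputed changes of the 8 genes against DMSO kept their direction and call in 1147 cases, lost the call in 31, gained it in 10, and changed sign in 12, none of these a called value. The sign changed for *K08D8.5* with LK32 (-0.17, quantile normalization), *K08D8.5* with LK56 (-0.32 with quantile normalization, -0.12 with median centring, -0.02 with array weights, -0.07 without LK56 A), *dod-3* with LK56 (0.02 with array weights, 0.08 without LK56 A), and *dod-23* with LK56 (-0.09 with quantile normalization, -0.13 with median centring, -0.19 with array weights, -0.12 without DMSO B, -0.09 without LK56 C). Leaving out single arrays, these changes with LK56 ranged from -0.07 to 0.22 for *K08D8.5*, -0.18 to 0.08 for *dod-3*, and -0.12 to 0.28 for *dod-23*. With the arrays of the 2 groups alone the called genes numbered 0, 5, 2, 3, and 1 for LK32, LK34, LK35, LK38, and LK56, and 15 over the pairs, where the spread rests on 6 arrays in place of 18. Leaving out single arrays gave 2 to 2 called genes with LK32, 6 to 7 with LK34, 5 to 6 with LK35, 6 to 6 with LK38, 2 to 2 with LK56, and 32 to 40 over the pairs. *dod-24* with LK35 was called without LK35 B (-1.06), and *irg-4* with LK32 with array weights (1.08). The array letters did not clearly pair the samples. Deviations of same-letter arrays of different groups correlated between -0.46 and 0.8 (median 0.01), above 0.1 in 16 of 45 pairs. Those of different-letter arrays correlated between -0.75 and 0.74 (median -0.01), above 0.1 in 26 of 90 pairs. With the letters as a replicate block 2, 6, 5, 6, and 2 genes were called, and 35 over the pairs. Of the 9 probe sets, those of *sysm-1* and *C32H11.4* and the dimmer one of *K08D8.5* (mean 13.25 with DMSO) had control levels nearest the lowest value, 4.605, which limits the size of their changes.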
